A study of Homo sapiens with 16 samples.

Results

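The 35 genes described here carry cells out of G1 and through DNA replication, and they were followed here in the bronchial epithelial line 16HBE, which is of human origin, by RNA sequencing. They are the genes of a fixed list of symbols, with the TPM (a transcript level already scaled by transcript length and by library total) of all gene IDs of a symbol summed. All 35 were found among the 18632 symbols of the 3 h table and the 24570 symbols of the 6 h table, each under 1 gene ID, and all 35 entered the tests. Cells received D. rotundifolia 3×, a diluted ethanolic extract of the sundew plant (here Drosera), or Ctrl, the ethanol vehicle diluted alike without the plant. Each treatment had 4 libraries at 3 h and 4 at 6 h, 16 in all. Cells for 6 h came from another experiment, whose Ctrl served that time alone. All groups share a line transformed with SV40, whose large T antigen is a viral protein that binds RB and p53. The study states only an approximate depth per sample, and the exact depth of each library is unknown, because TPM keeps none of it.

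A cell enters S phase when cyclin D and cyclin E kinases phosphorylate RB, which then releases the E2F transcription factors. E2F switches on the genes that license replication origins, unwind DNA, copy it, supply nucleotides and package the new strands. These transcripts rise together at the border of G1 and S and are low in resting cells, so they are widely read as a sign of proliferation. In RNA from whole cultures, fewer cells in S phase and less RNA per cell cannot be told apart.

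No member passed the test at 3 h or at 6 h. With limma on log2(TPM + 1) and Benjamini-Hochberg adjustment over all symbols, 0 of 35 members were called at 3 h, where 0% of the 12919 symbols tested were called. At 6 h 0 of 35 were called, against 0.113% of 14179 symbols (16 symbols, all higher in Drosera). The study's own test of counts called more genes at both times. It called CYP1B1 at 3 h, which limma did not call in this fit. A member left uncalled here is therefore not shown to be unchanged. At an unadjusted p under 0.05 stood 0 of 35 members at 3 h, against 2.41% of all symbols, and 3 of 35 at 6 h, against 8.03%. The mean was higher in Drosera for 20 members and lower for 15 at 3 h (median change 0.0071 on the log2 scale, 0.015 over all symbols tested). It was higher for 13 and lower for 22 at 6 h (median -0.012, 0.0052 over all symbols). Both splits depended on how the libraries were scaled: 15 members were higher at 3 h after trimmed-mean scaling or median centring, and at 6 h 12 and 9 were. They also rested on single libraries. At 3 h 10 members were higher without Ctrl replicate 1, 28 without Drosera replicate 1 and 29 without Ctrl replicate 3 or 4, with medians between -0.039 and 0.073 over all libraries left out in turn. At 6 h 9 were higher without Drosera replicate 2 and 21 without Ctrl replicate 2, with medians between -0.043 and 0.0075.

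Each 95% interval gives a range for the change of its own member, and the intervals were not widened for the number of members. They come from the fit without the replicate number as a block, at both times. At 3 h the 95% interval of the log2 change lay within 0.3 either side of 0 for 27 of 35 members, and at 6 h for 28 of 35. All 35 intervals lay within 0.6 of 0 at both times. The interval reached a median of 0.213 to either side of the estimate over the members at 3 h (0.245 over all symbols) and of 0.161 at 6 h (0.236 over all symbols). The largest difference of means at 3 h was that of PRIM1 (-0.15), and at 6 h that of CCNE1 (0.28).

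**Figure D1:**
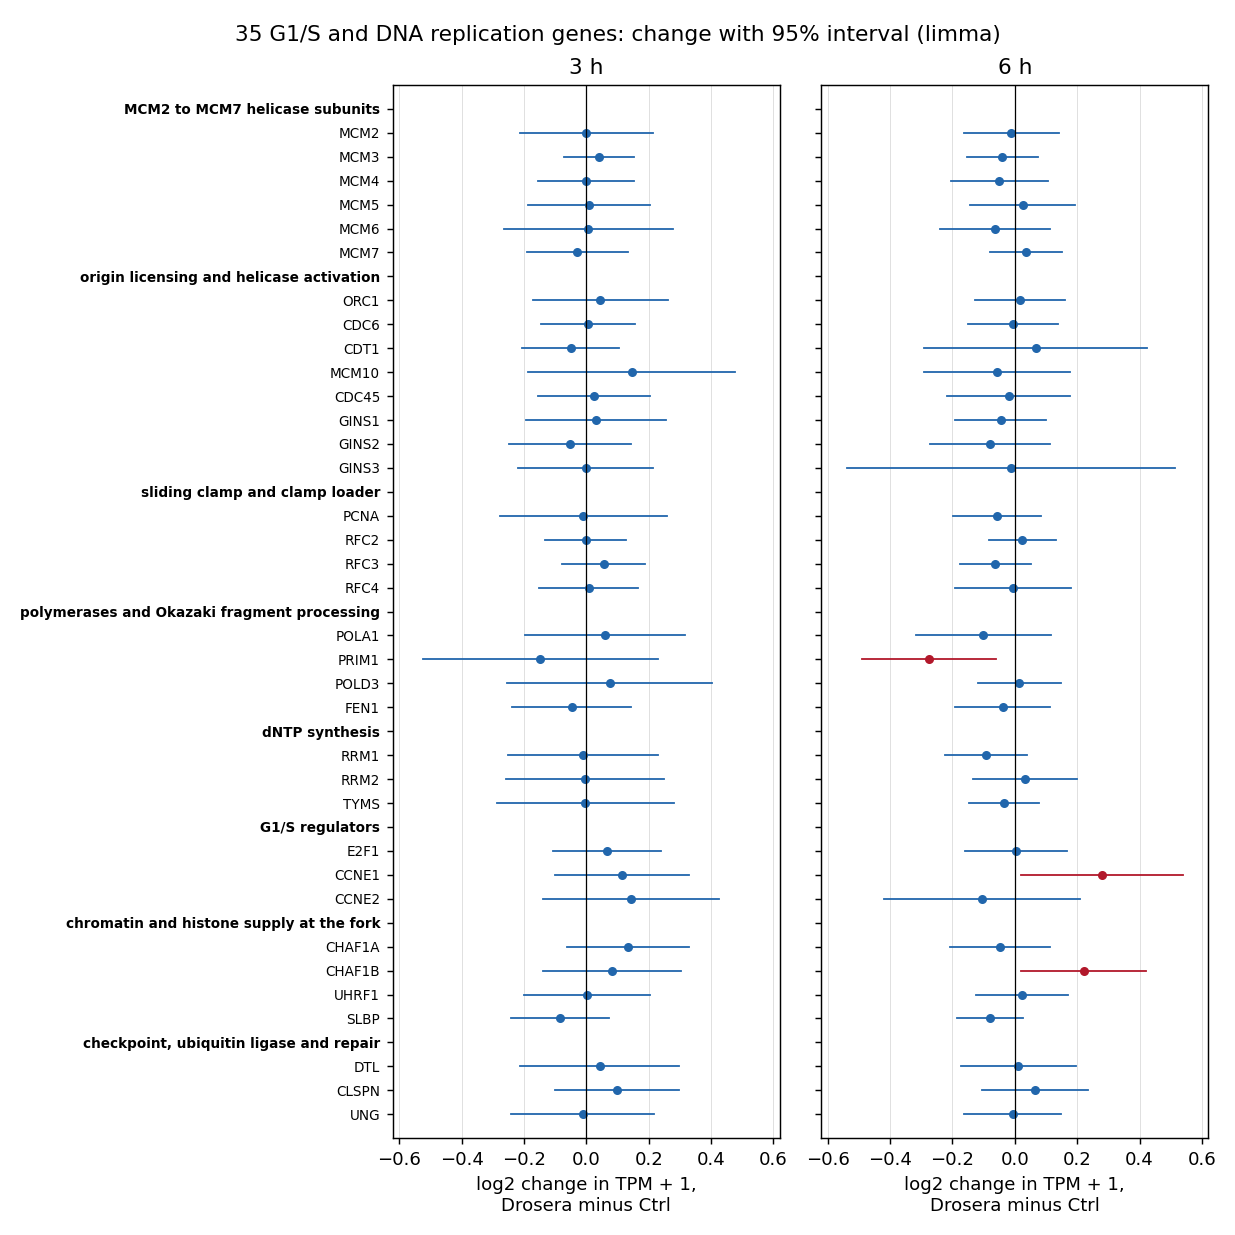
Log2 change of TPM + 1 (Drosera minus Ctrl) of each of the 35 members at 3 h (left) and 6 h (right), grouped by role, with the 95% interval of limma. Red marks an unadjusted p under 0.05: no member at 3 h, and PRIM1, CCNE1 and CHAF1B at 6 h, none of which passed the adjustment.

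E2F binds promoters at a short sequence, and the members' promoters were searched for it because E2F is the factor tied to this programme. The words searched were TTTCCCGC, TTTCGCGC, TTTGCCGC and TTTGGCGC, on both strands, in the 250 bases before each RefSeq gene start (GRCh38.p14). Promoters were matched for 31 of 35 members (not for MCM4, MCM5, POLD3 and CCNE2). A word was present for 13 of 31 members (41.9%), against 928 of 27305 genes with a promoter (3.4%). Among coding genes alone it was present for 729 of 15842 (4.6%). The box CCAAT, which binds NF-Y, was present for 20 of 31 members (64.5%), in 37.0% of all genes and in 40.2% of coding genes. Below are the promoters of E2F1, whose 2 words lie near the start, and of MCM6, which holds 4 words as 2 overlapping pairs. Those of PCNA, which holds 1, and of CCNE1, which holds none, follow, CCNE1 having had the largest difference of means at 6 h. Each is written 5′ to 3′ on the gene's strand with E2F words in capitals, for E2F1 at chr20:33686386-33686635 (minus strand), MCM6 at chr2:135876444-135876693 (minus), PCNA at chr20:5126627-5126872 (minus) and CCNE1 at chr19:29811741-29811990 (plus).
E2F1: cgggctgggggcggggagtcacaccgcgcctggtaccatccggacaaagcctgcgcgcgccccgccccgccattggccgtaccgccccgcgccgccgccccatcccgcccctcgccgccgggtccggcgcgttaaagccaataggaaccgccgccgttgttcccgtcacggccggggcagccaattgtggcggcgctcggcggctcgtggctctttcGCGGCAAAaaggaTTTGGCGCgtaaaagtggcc
MCM6: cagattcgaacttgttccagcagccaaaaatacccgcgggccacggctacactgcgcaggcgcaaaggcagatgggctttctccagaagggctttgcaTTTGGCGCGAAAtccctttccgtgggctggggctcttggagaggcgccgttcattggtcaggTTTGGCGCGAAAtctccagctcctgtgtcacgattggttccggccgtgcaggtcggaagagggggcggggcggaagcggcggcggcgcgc
PCNA: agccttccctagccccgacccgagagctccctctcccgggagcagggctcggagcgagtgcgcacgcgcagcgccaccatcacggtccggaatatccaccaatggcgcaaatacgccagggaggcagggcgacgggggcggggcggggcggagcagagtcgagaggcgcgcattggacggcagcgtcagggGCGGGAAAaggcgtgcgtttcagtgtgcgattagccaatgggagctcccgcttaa
CCNE1: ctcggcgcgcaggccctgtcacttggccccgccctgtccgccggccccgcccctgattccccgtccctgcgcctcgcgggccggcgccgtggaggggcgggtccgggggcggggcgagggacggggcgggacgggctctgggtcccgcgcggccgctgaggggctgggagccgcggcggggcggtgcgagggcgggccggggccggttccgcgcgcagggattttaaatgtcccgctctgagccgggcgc

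The words in the E2F1 promoter begin 33 and 20 bases before the start, that of PCNA 59 bases before it, and those of MCM6 at 152, 148, 90 and 86 bases. Members with a word had a median change of 0.0028 at 3 h and -0.034 at 6 h (13 members), and members without one 0.0063 and -0.011 (18 members). A match is only a description of these letters, other forms of the site were not searched, and binding was not measured.

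The cyclins and E2F1 are the regulators that start the programme. CCNE1 encodes cyclin E1, the activator of CDK2 at the end of G1 (ENSG00000105173, chromosome 19, 29811991 to 29824312). At 6 h its TPM was 12.0, 15.4, 12.1 and 15.0 in the Drosera libraries, against 9.15, 11.6, 11.6 and 11.7 in Ctrl. Every Drosera library lay above every Ctrl library, although the nearest 2 were 12.0 in Drosera and 11.7 in Ctrl. Such a complete separation upwards was seen in 3.43% of all symbols at 6 h, and downwards in 1.65%. CCNE1 was the 1 member separated upwards, and no member was separated downwards. The change was 0.28 ± 0.11 (log2, SE, n = 4 per group), with a limma p of 0.039 before adjustment and 0.59 after it. At 3 h CCNE1 read 12.5, 14.3, 15.8 and 16.8 TPM in Drosera, against 12.9, 13.2, 14.4 and 13.8 in Ctrl. These values overlapped (0.11, adjusted p = 1), the lowest of all 8 being a Drosera library.

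CCNE2 encodes cyclin E2, the second CDK2 activator. At 3 h it stood at 46.7, 45.7, 50.3 and 54.4 TPM in Drosera and at 37.2, 40.0, 55.8 and 47.0 TPM in Ctrl. The highest and the 2 lowest values were all Ctrl, so the groups overlapped (0.14 ± 0.12). At 6 h the sign was the other way, with 45.8, 40.0, 33.2 and 36.7 TPM in Drosera and 37.5, 53.7, 37.0 and 40.4 TPM in Ctrl (-0.11 ± 0.14). The difference of its change between times (6 h minus 3 h) was -0.25, with an interval of -0.66 to 0.16, and did not pass the test.

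E2F1, a transcription factor of the E2F family, differed little. It read 34.3, 37.7, 40.3 and 33.1 TPM in Drosera and 35.5, 33.7, 36.5 and 32.7 TPM in Ctrl at 3 h. After 6 h E2F1 read 31.4, 31.6, 29.4 and 32.2 TPM in Drosera and 28.6, 34.9, 29.7 and 31.3 TPM in Ctrl. The Drosera values fell inside the Ctrl range at 6 h, with a change of 0.0041 and an interval of -0.16 to 0.17.

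Origins are licensed by ORC1, CDC6 and CDT1, which load the ring of MCM2 to MCM7, the core of the replicative helicase. CDC6, the loading ATPase, averaged 122 ± 6.53 TPM in Drosera and 122 ± 8.66 TPM in Ctrl at 3 h (SD, n = 4). Its libraries were 127, 116, 117 and 128 TPM in Drosera and 116, 117, 119 and 135 TPM in Ctrl, where the last stood apart from the other 3. At 6 h CDC6 was at 112, 129, 121 and 136 TPM in Drosera, a wider range than the 122, 128, 123 and 126 TPM in Ctrl. The changes were 0.0054 at 3 h and -0.0060 at 6 h. MCM2 was at 89.4, 108, 107 and 104 TPM in Drosera and at 86.6, 111, 107 and 104 TPM in Ctrl at 3 h. In both groups replicate 1 was the low one, and the group means were 102 TPM each. At 6 h MCM2 was at 92.7, 97.3, 91.0 and 91.8 TPM in Drosera, inside the range of 96.0, 103, 93.8 and 83.7 TPM in Ctrl.

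The other helicase subunits gave small differences too. The changes of the 6 subunits ran from -0.028 (MCM7) to 0.041 (MCM3) at 3 h and from -0.063 (MCM6) to 0.036 (MCM7) at 6 h. All 6 intervals lay within 0.3 of 0 at both times. MCM4 stood apart in level: it was at 1209 to 1359 TPM in Drosera and 1140 to 1365 TPM in Ctrl at 3 h, and at 1225 to 1450 TPM in Drosera and 1302 to 1493 TPM in Ctrl at 6 h. That was 4.92 to 6.29 times the highest of the other 5 subunits in the same library, over 16 libraries. MCM4 alone made up 26.2% to 29.3% of the members' summed TPM, so the sum follows this gene more than any other.

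Once loaded, the helicase is switched on by MCM10, CDC45 and the GINS complex. Of the 8 genes of licensing and activation, 5 had a higher mean in Drosera at 3 h and 2 at 6 h, with none called. MCM10, which joins the helicase to polymerase alpha, averaged 17.3 ± 2.03 TPM in Drosera and 15.7 ± 3.19 TPM in Ctrl at 3 h (0.15 ± 0.15). Its 6 h means were 16.1 ± 1.20 TPM in Drosera and 16.8 ± 2.29 TPM in Ctrl. CDC45 averaged 98.5 ± 7.88 TPM in Drosera and 96.8 ± 7.47 TPM in Ctrl at 3 h, and 77.6 ± 1.90 TPM in Drosera and 79.1 ± 9.47 TPM in Ctrl at 6 h. GINS3 was the least precise member at 6 h: its libraries spread over 15.0, 29.6, 14.5 and 21.5 TPM in Drosera and 23.3, 15.3, 22.6 and 17.9 TPM in Ctrl, and its interval ran from -0.54 to 0.52. GINS1 and GINS2 differed by -0.046 and -0.079 at 6 h and by 0.031 and -0.053 at 3 h. ORC1 differed by 0.046 at 3 h and 0.018 at 6 h, and CDT1 by -0.050 and 0.067.

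PCNA is the ring that clamps polymerases to DNA, and RFC2, RFC3 and RFC4 belong to the complex that loads it. PCNA was at 239, 289, 310 and 316 TPM in Drosera and at 238, 289, 324 and 311 TPM in Ctrl at 3 h. Here too replicate 1 was lowest in both groups. At 6 h PCNA was at 303, 350, 304 and 321 TPM in Drosera and at 326, 354, 319 and 331 TPM in Ctrl. Each Drosera library was below the Ctrl library of its number, but the groups overlapped (-0.058, interval -0.20 to 0.083). RFC3 averaged 37.2 ± 1.46 TPM in Drosera and 35.8 ± 1.59 TPM in Ctrl at 3 h, and 38.8 ± 0.953 TPM in Drosera and 40.6 ± 1.51 TPM in Ctrl at 6 h. RFC2 and RFC4 differed by -0.0012 and 0.0073 at 3 h and by 0.024 and -0.0067 at 6 h.

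PRIM1 encodes the catalytic subunit of the primase that starts each new strand with an RNA primer (ENSG00000198056, chromosome 12, 56730438 to 56752374). At 6 h its TPM was 42.5, 33.1, 32.5 and 39.7 in Drosera, against 44.3, 47.2, 45.6 and 41.6 in Ctrl. Replicates 2, 3 and 4 of Drosera lay below every Ctrl library, while replicate 1 lay above the lowest Ctrl library. The difference of -0.27 ± 0.095 had the smallest p of any member at 6 h, 0.018 before adjustment and 0.52 after it. At 3 h PRIM1 was at 30.8, 41.0, 49.3 and 42.7 TPM in Drosera and at 37.7, 43.5, 58.6 and 42.0 TPM in Ctrl. Its values ranged widely and overlapped, giving -0.15 with an interval of -0.52 to 0.23. Its partner POLA1, the catalytic subunit of polymerase alpha, differed by 0.059 at 3 h and -0.10 at 6 h. POLD3, a subunit of polymerase delta, and FEN1, the nuclease that trims Okazaki fragments, differed by 0.015 and -0.039 at 6 h.

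Ribonucleotide reductase, built from RRM1 and RRM2, and thymidylate synthase, encoded by TYMS, supply the deoxynucleotides. All 3 had nearly equal group means at 3 h, with changes of -0.0108, -0.0034 and -0.0029. RRM1 was at 148, 171, 180 and 160 TPM in Drosera and 135, 167, 185 and 179 TPM in Ctrl at 3 h. After 6 h RRM1 was at 182, 193, 196 and 182 TPM in Drosera and 188, 212, 211 and 192 TPM in Ctrl. At 6 h each Drosera library was below its like-numbered Ctrl library, with overlap between the groups (-0.093, adjusted p = 0.73). RRM2 was at 314, 366, 390 and 408 TPM in Drosera and 305, 372, 411 and 397 TPM in Ctrl at 3 h. After 6 h RRM2 was at 402, 455, 452 and 388 TPM in Drosera and 389, 442, 433 and 395 TPM in Ctrl. The groups overlapped at both times, and replicate 1 was the lowest of both groups at 3 h. TYMS was at 347, 475, 453 and 466 TPM in Drosera and 354, 471, 458 and 460 TPM in Ctrl at 3 h. After 6 h TYMS was at 428, 477, 449 and 441 TPM in Drosera and 452, 478, 456 and 450 TPM in Ctrl. At 3 h replicate 1 lay over 100 TPM below each other library of its group, in Drosera and in Ctrl, while the group means were 435 TPM in Drosera and 436 TPM in Ctrl.

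New DNA is packaged by CAF-1, whose 2 larger subunits are encoded by CHAF1A and CHAF1B, from histones whose mRNAs need the stem-loop binding protein SLBP. CHAF1B (chromosome 21, 36385392 to 36419015) was at 20.8, 23.1, 20.3 and 21.7 TPM in Drosera and 19.8, 20.4, 16.7 and 16.4 TPM in Ctrl at 6 h. All but the lowest Drosera library lay above all of Ctrl, and the difference was 0.22 ± 0.087, with a limma p of 0.034 before adjustment and 0.58 after it. At 3 h CHAF1B was at 17.4, 20.6, 21.9 and 19.6 TPM in Drosera and 16.8, 18.0, 21.5 and 18.5 TPM in Ctrl. Every Drosera library was above its like-numbered Ctrl library there too, while the groups overlapped (0.082 ± 0.097).

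CHAF1A had the smallest p of any member at 3 h. It was at 49.3, 52.5, 57.4 and 61.2 TPM in Drosera and at 46.0, 48.5, 55.5 and 50.4 TPM in Ctrl, higher in Drosera in 4 of 4 like-numbered pairs (0.13 ± 0.086, adjusted p = 1). At 6 h it was at 51.2, 51.0, 50.9 and 58.1 TPM in Drosera and 56.0, 55.8, 57.5 and 49.1 TPM in Ctrl. Drosera was then lower in 3 of 4 pairs and the groups overlapped (-0.047). SLBP was at 104, 106, 115 and 117 TPM in Drosera and 107, 113, 125 and 124 TPM in Ctrl at 3 h. After 6 h SLBP was at 102, 111, 107 and 103 TPM in Drosera and 108, 114, 113 and 111 TPM in Ctrl. It was the lower one in Drosera in every like-numbered pair at both times, with overlapping groups and changes of -0.085 at 3 h and -0.080 at 6 h. UHRF1, which guides maintenance of DNA methylation at the fork, differed by 0.0028 at 3 h and 0.024 at 6 h.

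CLSPN encodes claspin, the adaptor of the replication checkpoint, DTL the substrate receptor of a ubiquitin ligase that degrades CDT1, and UNG the uracil glycosylase. CLSPN was at 29.9, 34.9, 35.7 and 36.0 TPM in Drosera and 28.6, 30.3, 34.2 and 34.2 TPM in Ctrl at 3 h. Drosera was higher in 4 of 4 pairs, within overlapping groups (0.098 ± 0.088, adjusted p = 1). At 6 h CLSPN was at 25.8, 27.1, 27.0 and 24.7 TPM in Drosera and 23.2, 27.6, 26.2 and 23.0 TPM in Ctrl, the Drosera values inside the Ctrl range (0.064). DTL and UNG differed by 0.043 and -0.011 at 3 h and by 0.012 and -0.0070 at 6 h.

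**Figure D2:**
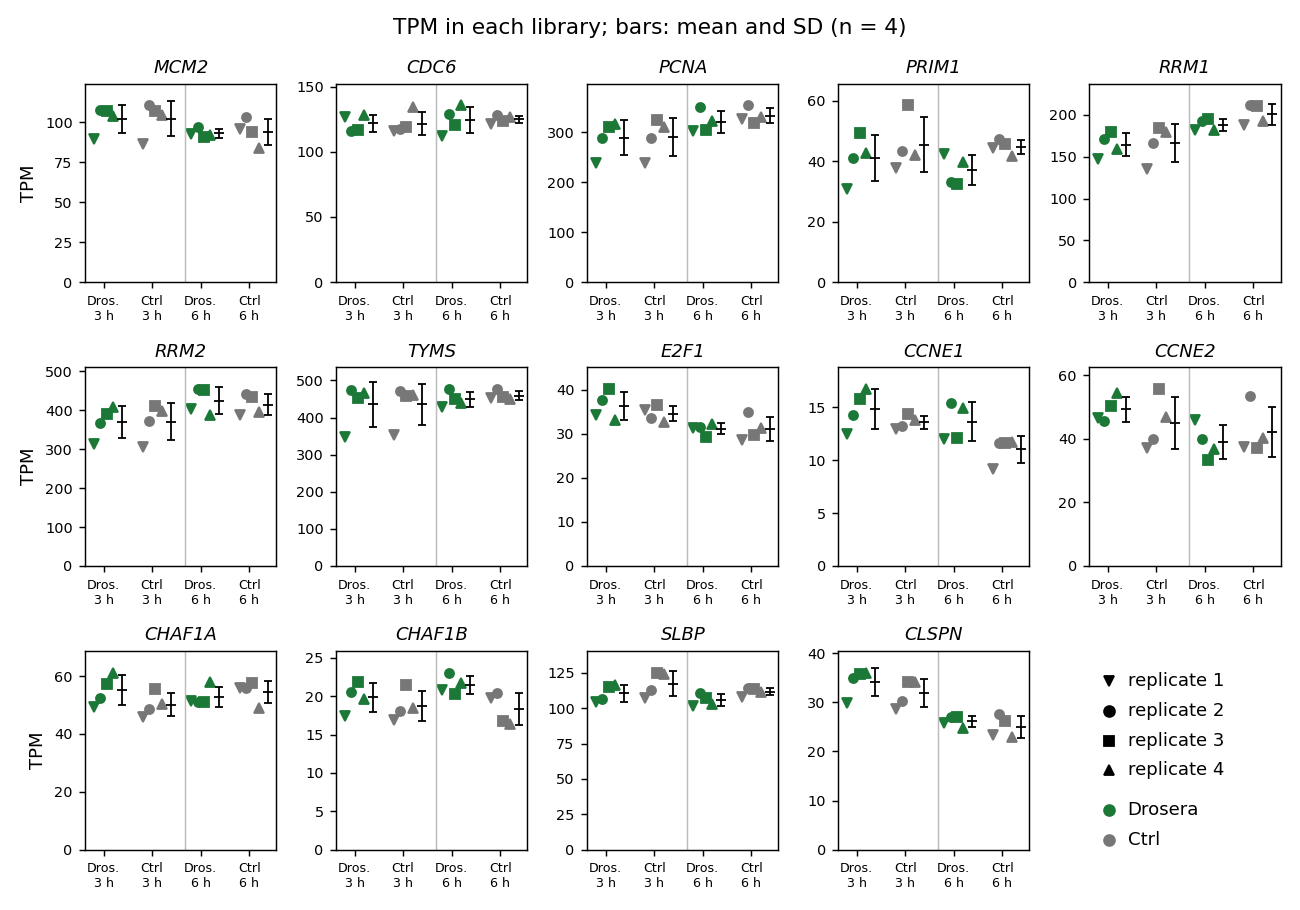
TPM of 14 members in each of the 16 libraries, Drosera (green) and Ctrl (grey) at 3 h and then at 6 h, with a marker for each replicate number and the mean and SD of each group. CCNE1 at 6 h is the single panel where all 4 Drosera points lie above all 4 Ctrl points, and the downward triangles of replicate 1 are the low points of both groups in most 3 h panels.

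The members shared a pattern by replicate number. At 3 h both libraries of replicate 1 were the lowest of their group for 28 of 35 members (80%), against 23.5% of all symbols tested. The like-numbered libraries of replicates 2, 3 and 4 did so for 0, 0 and 1 member. The members summed to 4121 TPM in replicate 1 of Drosera and 3998 TPM in replicate 1 of Ctrl, while the others ran from 4603 to 4828 TPM in Drosera and from 4606 to 4921 TPM in Ctrl. Set against the mean of the 4 Ctrl libraries, the median member was at -0.13 (log2) in replicate 1 of Drosera and -0.17 in replicate 1 of Ctrl, against 0.025, 0.10 and 0.083 in Drosera 2, 3 and 4 and -0.016, 0.10 and 0.064 in Ctrl 2, 3 and 4. The median of all symbols tested stayed between -0.016 and 0.039 in these 8 libraries. The share of TPM from mitochondrial genes was 3.25% and 3.72% in the libraries of replicate 1, inside the range of 2.89% to 4.53% over the 3 h libraries, and its part in the result was not tested.

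At 6 h the shared pattern was another one. Both libraries of replicate 2 were the highest of their group for 16 of 35 members (45.7%), against 8.65% of all symbols. Replicate 4 gave 2 such members and replicates 1 and 3 gave none. The members summed to 5090 TPM in replicate 2 of Drosera and 5203 TPM in replicate 2 of Ctrl, above the 4682 to 4734 TPM of the other Drosera libraries and the 4725 to 4838 TPM of the other Ctrl libraries. Among 30 genes of G2/M and mitosis the same pair was the lowest of its group for 13 (43.3%), against 6.41% of all symbols, and the highest for 0. At 3 h those genes had both libraries of replicate 1 lowest for 12 of 30 (40%, against 23.5%) and both of replicate 2 highest for 10 (33.3%, against 13.3%). Of the 40 other replication factors 17 (42.5%) had both libraries of replicate 1 lowest at 3 h. Of 28 other G1/S regulators 7 did (25%), while for 10 (35.7%) both were the highest, against 15.5% of all symbols. CDKN1A was one of those 10, at 183 TPM in replicate 1 of Drosera and 179 TPM in replicate 1 of Ctrl, where the others ran from 70.9 to 86.3 TPM in Drosera and from 74.2 to 78.2 TPM in Ctrl. Replicate numbers were singled out here after the values were seen.

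**Figure D3:**
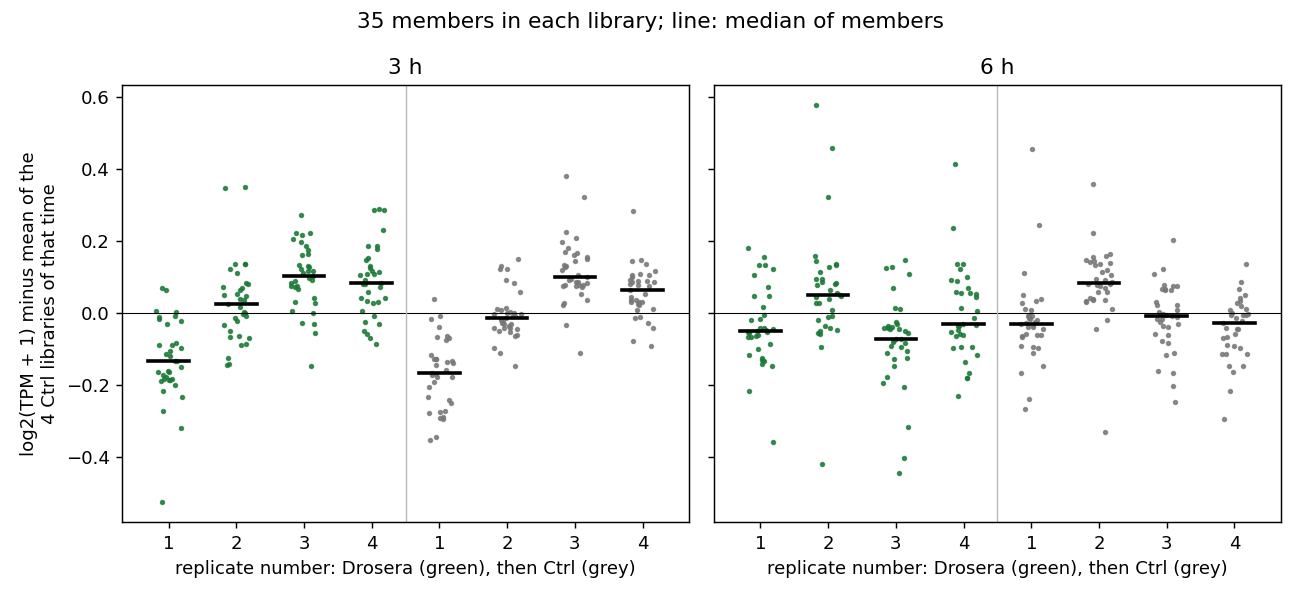
Log2(TPM + 1) of each of the 35 members (dots) minus its mean over the 4 Ctrl libraries of that time, by library, with Drosera in green and then Ctrl in grey, and the median as a black line. Replicate 1 of both groups lies low at 3 h (medians -0.13 in Drosera and -0.17 in Ctrl), and replicate 2 of both groups lies highest at 6 h.

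**Figure D4:**
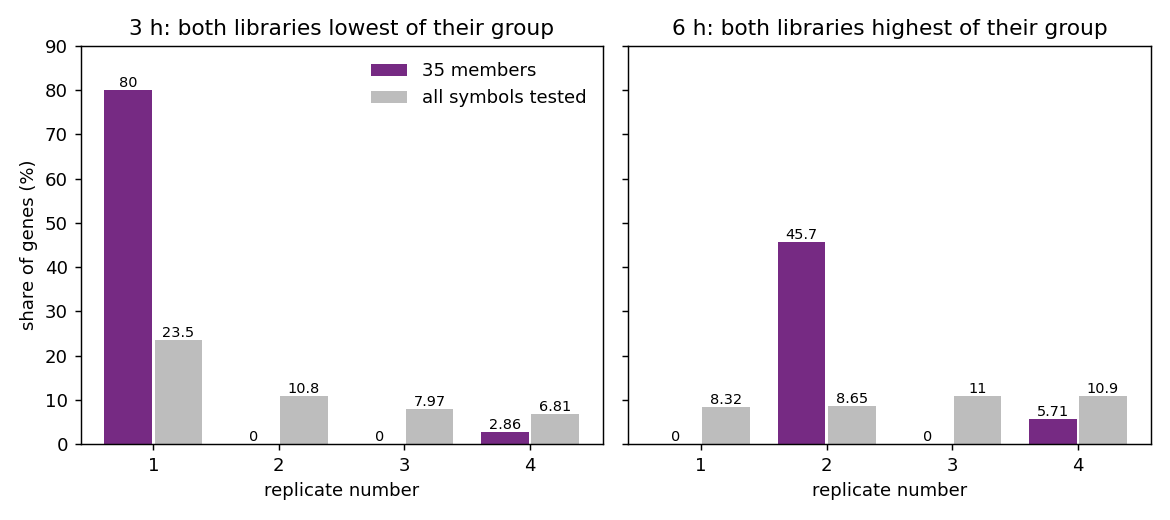
Share of genes for which both libraries of a replicate number were the lowest of their group at 3 h (left) or the highest at 6 h (right), for the 35 members (purple) and all symbols tested (grey). Members reach 80% for replicate 1 at 3 h and 45.7% for replicate 2 at 6 h, against 23.5% and 8.65% of all symbols.

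At 3 h the replicate numbers were taken as pairs, so the members were also compared within them. With the number as a block, the median standard error of the members was 0.041, against 0.094 without it, and it was smaller for all 35. Over all symbols it was 0.069 with the block and 0.11 without. Still 0 of 35 members passed the adjustment, and 1 symbol of all did. At an unadjusted p under 0.05 stood 2 members, against 6.87% of all symbols: CHAF1A, with an adjusted p of 0.71 in limma, and SLBP, with 0.70. Drosera was higher in 4 of 4 pairs for 6 of 35 members (MCM3, ORC1, RFC3, CHAF1A, CHAF1B and CLSPN), against 9.57% of all symbols, and lower in 4 of 4 for 1 (SLBP), against 6.04%. Without both libraries of replicate 1, 17 of 35 members had a higher mean in Drosera at 3 h and 0 were called.

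At 6 h the numbers were not taken as pairs, and the same tally is given as a description. Drosera was lower than the like-numbered Ctrl library in 4 of 4 numbers for 7 of 35 members (MCM6, PCNA, RFC3, PRIM1, RRM1, TYMS and SLBP), against 10% of all symbols, and higher in 4 of 4 for 2 (CCNE1 and CHAF1B), against 13.1%. With the replicate block at 6 h, 4 members stood at an unadjusted p under 0.05 (PRIM1, RRM1, CCNE1 and CHAF1B), against 13.1% of all symbols, and 0 were called. The median standard error of the members was 0.049 with the block and 0.070 without it. It was smaller with the block for 29 of 35 members, and for 82.2% of all symbols.

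No member passed the test for a different change at 6 h than at 3 h. In a fit of all 16 libraries, 0 of 35 members passed the test of the difference, where 0.00792% of 12623 symbols did, and 0 of 35 stood at an unadjusted p under 0.05, against 3.49%. The differences (6 h minus 3 h) ran from -0.25 (CCNE2) to 0.17 (CCNE1). The smallest p was that of RFC3, a clamp loader subunit, at -0.12 with an interval of -0.27 to 0.033 (adjusted p = 0.999).

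The levels of the members kept nearly the same order at both times. In Ctrl the 4 highest were MCM4, TYMS, RRM2 and PCNA at 6 h and at 3 h alike. TYMS averaged 459 ± 12.6 TPM and RRM2 415 ± 26.8 TPM in Ctrl at 6 h, and TYMS 436 ± 55.0 TPM and RRM2 371 ± 47.0 TPM in Ctrl at 3 h, where their spreads overlapped. CCNE1 (11.0 ± 1.25 TPM) and POLA1 (12.6 ± 1.17 TPM) were the lowest in Ctrl at 6 h and did not differ beyond their spread. Between the Ctrl groups, 22 members had a higher mean at 6 h and 13 a lower one. Every 6 h Ctrl library was above every 3 h Ctrl library for RFC2, RFC3, POLA1, RRM1 and DTL, and below for CDC45, CCNE1 and CLSPN. That was 5 of 35 members above, against 11.7% of the 12313 symbols tested at both times, and 3 of 35 below, against 10.8%. DTL averaged 57.3 ± 2.42 TPM in Ctrl at 6 h and 43.0 ± 5.80 TPM in Ctrl at 3 h. The times were separate experiments in separately made tables, so time and experiment cannot be told apart and no test was made.

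**Figure D5:**
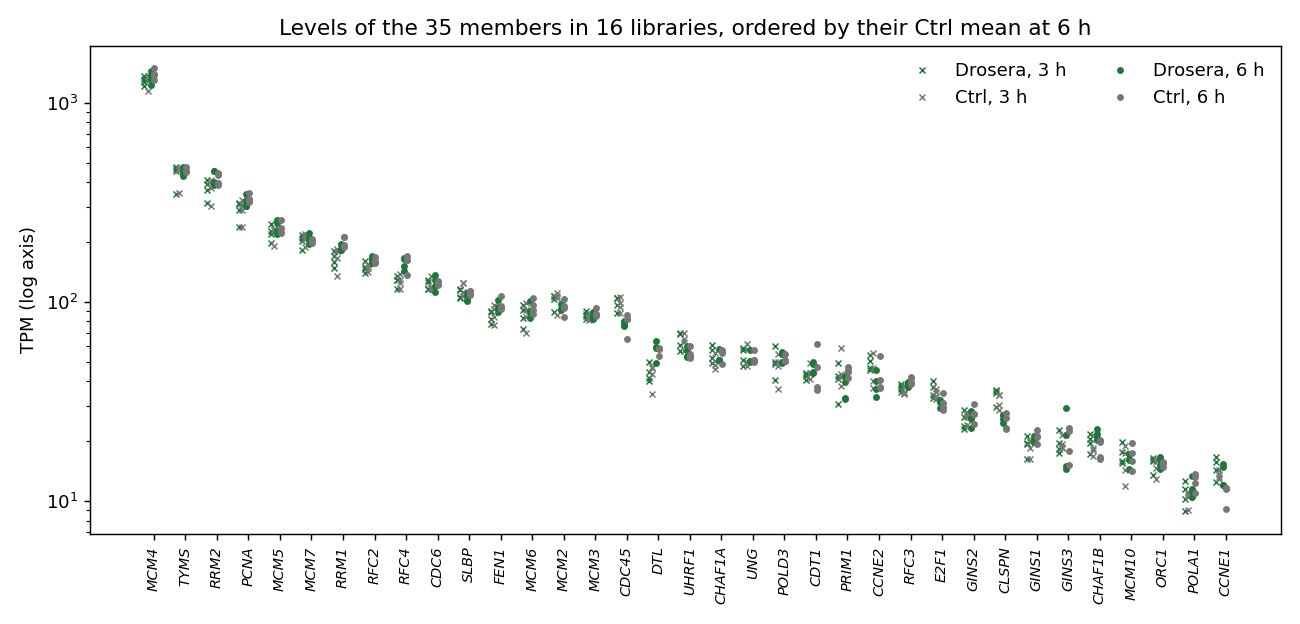
TPM (log axis) of the 35 members in all 16 libraries, ordered by their Ctrl mean at 6 h, with Drosera in green and Ctrl in grey, crosses for 3 h and dots for 6 h. MCM4 lies far above the other members, and green and grey symbols overlap for nearly all genes.

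Other genes of the pathway were not called either. Of 79 other replication factors, nucleotide and chromatin supply genes and G1/S regulators tested at 3 h, 0 were called, and at 6 h 0 of 80 were. At 3 h the 40 other replication factors had a median change of 0.036, with 29 higher and 11 lower. ORC2, an origin binding subunit, averaged 23.5 ± 1.73 TPM in Drosera and 20.7 ± 1.54 TPM in Ctrl at 3 h (0.17 ± 0.080). The median of these 40 factors at 6 h was -0.0089, with 17 higher and 23 lower. In 4 of 4 like-numbered libraries Drosera was then lower for 10, against 10% of all symbols, and higher for 3, against 13.1%. Every Drosera library lay below every Ctrl library for 3 (TICRR, POLE2 and RFC1), against 1.65%, and above for 0, against 3.43%. CDK4, the kinase that cyclin D activates, was lower in every Drosera library at 3 h (203 ± 6.92 TPM in Drosera and 218 ± 5.23 TPM in Ctrl, -0.10), as were 0.503% of all symbols, while 1.02% were higher in every Drosera library and no member was either. At 6 h CDK4 averaged 230 ± 21.6 TPM in Drosera and 224 ± 7.29 TPM in Ctrl.

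Upstream of the members, 29 other G1/S regulators were tested at 6 h and 7 stood at an unadjusted p under 0.05, 5 higher and 2 lower, with none called, against 8.03% of all symbols. Of the 29, 4 had every Drosera library above every Ctrl library (CCND1, CCND3, E2F4 and CDKN1A), against 3.43% of all symbols, and CDKN2C alone had every one below, against 1.65%. CCND3, which encodes cyclin D3, was at 75.7, 79.8, 86.6 and 78.5 TPM in Drosera, above all of 57.2, 64.2, 71.2 and 58.9 TPM in Ctrl (0.35 ± 0.079, adjusted p = 0.22). CDKN2C, an inhibitor of CDK4 and CDK6, averaged 13.5 ± 0.640 TPM in Drosera and 16.3 ± 1.15 TPM in Ctrl, with every Drosera library below every Ctrl library (-0.25 ± 0.070, adjusted p = 0.38). CDKN1A, which encodes the CDK inhibitor p21, was at 96.0, 128, 148 and 94.6 TPM in Drosera and at 79.5, 87.8, 87.0 and 65.5 TPM in Ctrl (0.52 ± 0.16, adjusted p = 0.44). CCND1, which encodes cyclin D1, was at 93.3, 122, 147 and 109 TPM in Drosera and at 71.3, 87.0, 89.7 and 89.4 TPM in Ctrl (0.47 ± 0.14, adjusted p = 0.43). In both genes replicate 3 of Drosera was the highest of all 8 libraries. E2F4, an E2F family member that acts mostly as a repressor, averaged 65.5 ± 7.53 TPM in Drosera and 54.5 ± 3.56 TPM in Ctrl (0.26, adjusted p = 0.52). MYC, a transcription factor that drives growth, was at 14.8, 25.4, 27.5 and 20.3 TPM in Drosera and at 15.3, 15.7, 12.9 and 16.8 TPM in Ctrl, with overlap (0.48, adjusted p = 0.56). RBL1, the RB relative p107, averaged 17.8 ± 1.03 TPM in Drosera and 20.8 ± 1.29 TPM in Ctrl, also with overlap (-0.21, adjusted p = 0.48). At 3 h the changes were -0.019 for CCND3, -0.069 for CDKN2C, 0.039 for CDKN1A and -0.089 for CCND1. For E2F4, MYC and RBL1 they were 0.015, -0.16 and 0.0052, MYC being lower in Drosera in every like-numbered pair. All 7 genes overlapped between the groups at 3 h.

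The remaining genes with the smallest p-values of their lists were not called, and all but RFC1 at 6 h overlapped between the groups. Of the other replication factors, RFC1, the large clamp loader subunit, averaged 119 ± 7.07 TPM in Drosera and 132 ± 1.05 TPM in Ctrl at 6 h (-0.15). Every Drosera library of RFC1 lay below every Ctrl library at 6 h, the nearest values being 129 TPM in Drosera and 130 TPM in Ctrl. ORC3, an origin binding subunit, averaged 33.9 ± 1.15 TPM in Drosera and 37.4 ± 1.77 TPM in Ctrl (-0.14). DONSON, a replisome factor, averaged 63.2 ± 3.64 TPM in Drosera and 58.8 ± 4.82 TPM in Ctrl at 3 h (0.10). CKS1B, a cofactor of cyclin kinases, averaged 219 ± 8.44 TPM in Drosera and 206 ± 5.47 TPM in Ctrl at 3 h (0.086). RRM2B, the p53-inducible subunit of ribonucleotide reductase, averaged 113 ± 3.23 TPM in Drosera and 126 ± 19.0 TPM in Ctrl at 3 h (-0.14), and 119 ± 3.42 TPM in Drosera and 132 ± 10.6 TPM in Ctrl at 6 h (-0.14). DCK, which phosphorylates deoxycytidine, averaged 416 ± 50.2 TPM in Drosera and 361 ± 36.3 TPM in Ctrl at 3 h (0.20). The histone chaperone NASP averaged 360 ± 27.9 TPM in Drosera and 393 ± 30.3 TPM in Ctrl at 6 h (-0.13).

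Among 30 genes of G2/M and mitosis, 0 were called at either time. At 6 h 3 stood at an unadjusted p under 0.05 (KIF11, NUSAP1 and HMMR, all lower), and 10 did with the replicate block, against the 8.03% and 13.1% of all symbols given above. Drosera was lower in 4 of 4 like-numbered libraries for 14 of the 30 at 6 h, against 10% of all symbols. It was higher in 4 of 4 for 1, against 13.1%. At that time 22 had a lower mean in Drosera and 8 a higher one (median -0.11, 0.0052 over all symbols). NUSAP1, a spindle protein, averaged 151 ± 8.20 TPM in Drosera and 173 ± 4.62 TPM in Ctrl at 6 h (adjusted p = 0.36). NUSAP1 alone of the 30 had every Drosera library below every Ctrl library, against 1.65% of all symbols. For 0 of the 30 was every Drosera library above, against 3.43%. KIF11, the spindle motor, averaged 36.7 ± 2.75 TPM in Drosera and 42.7 ± 3.03 TPM in Ctrl at 6 h. At 3 h the median of these genes was 0.0029, and KIF23, a motor of the midbody, averaged 39.2 ± 1.39 TPM in Drosera and 34.4 ± 2.70 TPM in Ctrl (adjusted p = 1). BUB1, a kinase of the spindle checkpoint, averaged 49.0 ± 4.37 TPM in Drosera and 44.3 ± 1.03 TPM in Ctrl at 3 h (0.14).

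The libraries carried the markers of an epithelial line. Of 8 epithelial markers 7 had a mean of at least 1 TPM at both times, TP63 being under 1, and the list summed to 8990 to 11356 TPM in Drosera and 9349 to 11711 TPM in Ctrl at 3 h, and to 8391 to 12048 TPM in Drosera and 8835 to 10991 TPM in Ctrl at 6 h. The ciliated markers FOXJ1 and TPPP3 were under 1 TPM, as were PTPRC and CD3E of leukocytes, PECAM1 and VWF of endothelium and COL1A2 and LUM of fibroblasts. Of the lists for those 3 other cell types, CD68, CDH5 and COL1A1 were above 1 TPM at both times.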

How the data were processed

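RNA of 16 cultures of 16HBE cells was sequenced as single-end reads. The authors quantified transcripts with Salmon 0.13.1 on GENCODE 32, summed them to genes and discarded genes with few reads. The deposited tables, 1 per time, hold TPM per gene and library, scaled by the authors to 1 total per library (997870 to 999300 after 89 repeated rows were dropped). They also hold 6 columns of the authors' own comparison by DESeq2 1.22.2 (mean counts, fold changes, errors, statistics and p-values), which were not used. TPM was summed per symbol. limma 3.58.1 in R 4.3.3 was fitted per time to log2(TPM + 1) for symbols with a mean of at least 1 TPM, moderated with a trend, two-sided, with Benjamini-Hochberg adjustment and a threshold of 0.05. For the difference between times, an interaction was fitted over 16 libraries. A fold change on this scale understates low genes. The fits were tested on simulated data with independent noise in each library. Calls were required there only for planted changes far larger than those of the members.

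The study calls the 4 libraries of a group biological replicates. Libraries of the same number at 3 h had residuals correlating at 0.187 to 0.470, all above the bound of 0.1, and were taken as pairs. Alternatives were a pseudocount of 0.1 or 5, no filter, a mean of at least 5 TPM, another scaling, 1 row per gene ID, no trend, the block and leaving out libraries. Values per library were given for members among the 5 smallest p-values at either time and for MCM2, PCNA, CCNE1, E2F1, CDC6, RRM2 and TYMS. Of each other list, the genes with the 2 smallest p-values at each time were named, mostly by mean and SD. GINS3, HMMR, TICRR, POLE2 and 5 G1/S regulators outside the lists of smallest p were named after their values were seen. The members and lists were chosen with earlier results of these data known. Coordinates of genes are those of GENCODE 44 on GRCh38. Python 3.11.15 was used for tables and plots.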

Additional observations from a re-analysis of the deposited data

Results flagged for a closer look

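In groups of 4 libraries, 7 of 140 member groups held a library whose gap to its nearest neighbour was too large a part of the group's range by Dixon's 95% critical value, where chance flags about 1 in 20. At 3 h these were the lowest Ctrl library of MCM5 (191 TPM), the highest Ctrl library of CDC6 (135 TPM) and the lowest Ctrl library of TYMS (354 TPM). At 6 h they were the highest Drosera library of CHAF1A (58.1 TPM) and of UNG (57.4 TPM), and the lowest Ctrl library of CCNE1 (9.15 TPM) and of DTL (53.8 TPM). The lowest Ctrl libraries of MCM5 and TYMS at 3 h and of CCNE1 at 6 h were replicate 1.

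RFC3 was lower in all 4 like-numbered pairs at 6 h and higher in all 4 at 3 h. The difference of its change between times was -0.12 (log2) and did not pass the test in limma (adjusted p = 0.999).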

How the results depend on the processing

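Under every alternative listed in the processing, 0 of 35 members and 0 genes of the other lists were called at 3 h and at 6 h, and 0 members for the difference between times. With each library left out in turn, or both of replicate 1, the members with a higher mean in Drosera numbered 10 (without Ctrl replicate 1) to 29 at 3 h and 9 to 21 (without Ctrl replicate 2) at 6 h, and their median change ran between -0.039 and 0.073 at 3 h and between -0.043 and 0.0075 at 6 h.

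Over all symbols, 1 was called at 3 h with the replicate block and 1 with 1 row per gene ID, against 0 without, and 0 to 2 with libraries left out. At 6 h 16 were called, 7 with no filter, 40 with the replicate block, and 4 to 47 with libraries left out (47 without Drosera replicate 1, 4 without Drosera replicate 3). For the difference between times 1 was called, 32 with the replicate block and 1 to 2 with libraries left out. At 6 h same-numbered residual correlations were 0.0564 to 0.204, all positive, with 2 of 4 above 0.1. By that bound alone the numbers were not taken as pairs. The study ran Drosera and Ctrl wells side by side on shared plates and used paired statistics for its PCR time course. No source ties a number to a plate. At 6 h 6 of 8 libraries correlated best with their own number (8 of 8 at 3 h).

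Of 1102 values of named genes under alternatives, 90 changed sign, 74 of them with a library left out, and 0 passed the test. With both libraries of replicate 1 left out and the replicate block, a fit added after seeing the data, 0 symbols were called at 6 h, CDC6 was -0.035 and TYMS 0.0053 at 3 h, and CDC6 was 0.029, CKS1B 0.011, DONSON -0.032, E2F1 -0.037, MCM2 0.0022 and ORC2 -0.042 at 6 h. With trimmed-mean scaling CDC6 was -0.014 at 3 h, and DONSON was -0.0022, E2F1 -0.0033 and ORC2 -0.0032 at 6 h. With median centring CDC6 was -0.017 at 3 h, and DONSON was -0.017, E2F1 -0.018 and ORC2 -0.018 at 6 h. Leaving out libraries at 3 h gave ranges of -0.075 to 0.041 for CCND3, -0.035 to 0.054 for CDC6, -0.30 to 0.21 for CDKN2C, -0.11 to 0.087 for KIF11, -0.078 to 0.061 for MCM2, -0.16 to 0.014 for NUSAP1, -0.046 to 0.021 for ORC3, -0.10 to 0.078 for PCNA, -0.11 to 0.043 for RRM1, -0.094 to 0.073 for RRM2 and -0.10 to 0.10 for TYMS. At 6 h they were -0.23 to 0.013 for CCNE2, -0.049 to 0.042 for CDC6, -0.0033 to 0.10 for CDK4, -0.055 to 0.014 for CKS1B, -0.032 to 0.026 for DONSON, -0.037 to 0.059 for E2F1, -0.011 to 0.062 for KIF23, -0.066 to 0.034 for MCM2, -0.042 to 0.046 for ORC2 and -0.0031 to 0.074 for RRM2. The exact depth per library is unknown, so no limit from counting was given, and the causes were not tested.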

Other observations

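The MCM4 locus was looked at because its level, per transcript length, exceeded that of the other helicase subunits in all 16 libraries. Its neighbour on the chromosome, PRKDC, averaged 63.9 ± 15.4 TPM in Drosera and 64.2 ± 3.43 TPM in Ctrl at 3 h, and 81.0 ± 22.2 TPM in Drosera and 81.8 ± 22.5 TPM in Ctrl at 6 h. UBE2V2 averaged 85.2 ± 4.52 TPM in Drosera and 82.9 ± 3.30 TPM in Ctrl at 3 h, and 77.7 ± 2.63 TPM in Drosera and 79.9 ± 2.08 TPM in Ctrl at 6 h. Neither was near the level of MCM4, which ranked between 81 and 119 among all symbols of a library.

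Members with an E2F word in the promoter and members without one shared the low libraries of replicate 1 at 3 h, with 10 of 13 and 15 of 18 members having both of its libraries lowest.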
